A study of Mus musculus with 15 samples.

Results

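The 36 genes of glucose uptake and glycolysis described here were chosen by name: 5 carriers of glucose and lactate, 21 enzymes and isoforms of glycolysis and its phosphofructokinase regulators, 5 genes of pyruvate use, 4 of the pentose phosphate pathway, and Ckb, the brain-type creatine kinase. Each was found on the array under its own symbol or an older one, out of 27962 gene names on it, and a gene with several probes was represented by its brightest probe. All 36 passed the filter on dim probes and were well above background on every one of the 15 arrays. The RNA came from uteri of ovariectomized WT mice at least 10 weeks old, rested for 10 to 14 days after surgery, and was hybridized to single-color Agilent whole-genome arrays. The arrays formed 5 groups of 3: saline vehicle at 24 hr, estradiol (E2) at 2 hr, estriol (E3) at 2 hr, E2 at 24 hr, and E3 at 24 hr. Both hormones were injected into the peritoneum at 250 ng per mouse in 100 μL of saline, and the vehicle mice received the saline. E3 is a weaker natural estrogen that carries an additional hydroxyl group on the D ring of E2. No saline array at 2 hr was analysed here, so the 24-hr saline arrays served as the control for both times, and an effect of the injection itself at 2 hr cannot be told apart from the hormone. Strain was labelled C57bl6/J for 12 arrays and C57bl6/Jx129 for the 3 E2 2-hr arrays, which also lay on other slides and were read on another scanner, so that strain, scanner and E2 at 2 hr cannot be told apart. The E2 24-hr arrays and the E3 24-hr arrays also lay on slides of their own, so slide and treatment cannot be told apart in these groups either, and only 1 slide held arrays of more than 1 group. The methods describe RNA of pooled tissue, and the labels describe each uterus as homogenized by itself. Arrays were taken as the samples, and p-values measure the spread between these arrays.

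Glucose enters cells through carriers of the Slc2a family, is trapped as a phosphate ester by hexokinase, and is split by glycolysis into pyruvate with a net gain of ATP. Pyruvate is either reduced to lactate by lactate dehydrogenase and exported through Slc16a carriers, or enters mitochondria, where the pyruvate dehydrogenase kinases (Pdk) hold back its oxidation. A branch before the phosphofructokinase step, the pentose phosphate pathway, yields NADPH and the ribose of nucleotides. In the rodent uterus, estrogens are classically known to raise glucose uptake and glucose breakdown, within hours as fluid is taken up and later as the epithelium divides. Induction of creatine kinase B, once called the estrogen-induced protein, is among the earliest known uterine answers to E2.

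All levels are log2 values of the processed signal over the 75th percentile of the same array, so a level of 0 lies at that percentile. A difference of 1 is a 2-fold change. Calls required a p-value from limma under 0.001 together with a 2-fold or larger change, and the adjusted p given beside it is Benjamini-Hochberg corrected over all tested probes. Levels of different probes are not comparable with each other. In bulk tissue, fewer cells of a type and less RNA per cell cannot be told apart.

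Against saline, 11 of the 36 genes were called at 2 hr with either hormone and 10 at 24 hr, and Pdk4 alone was called at both times. Over all tested probes the calls were 10.7% higher and 10.5% lower with E2 at 2 hr, 4.68% and 9.1% with E3 at 2 hr, 6.91% and 11.2% with E2 at 24 hr, and 1.84% and 1.98% with E3 at 24 hr. The genes called higher at 2 hr were carriers, hexokinases, Pdk4 and Ckb. Those called higher at 24 hr were enzymes of the lower part of glycolysis, Ldha, Pdk3 and the NADPH-forming steps of the pentose phosphate pathway. None of the 36 was called higher at both times. By their brightest probes, the other 16 genes, among them Aldoa, Gpi1, Ldhb, Slc2a4 and all 3 phosphofructokinase subunits, passed both cutoffs against saline in no treated group. Of these, Pfkp and Pdha1 each had a dimmer probe called with E2 at 24 hr, at -1.25 and 1.11.

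**Figure D1:**
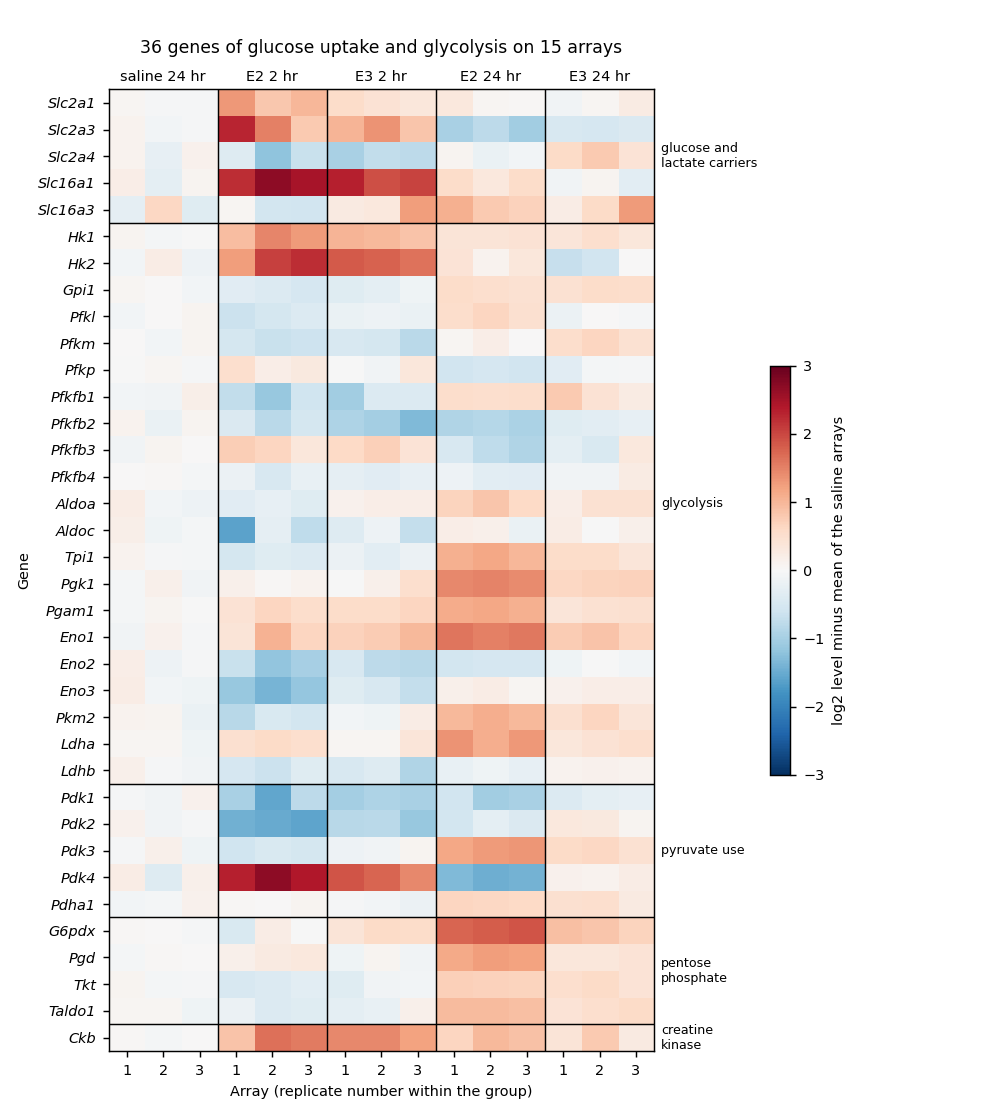
Each cell is the log2 level of a gene (rows, ordered by role) on an array (columns, 3 per group) minus the mean of the 3 saline arrays; red is higher and blue lower than saline. Slc16a1, Hk2, Pdk4 and Ckb stand out in red on the 6 arrays of 2 hr, and Tpi1, Pgk1, Pgam1, Eno1, Pkm2, Ldha, Pdk3, G6pdx and Pgd on the 3 arrays of E2 at 24 hr, while Pdk4 is blue there.

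The stretches upstream of the start site are shown for 3 of the 4 genes called higher at 2 hr with both hormones. For 24 hr they are shown for 2 of the 9 genes called higher with E2, since the members' calls fell into these groups by time. The reference table held promoters of 34 of the 36 genes. Each line gives the 250 bases before the RefSeq start site on the strand of the gene, build GRCm38.p6, with the letters ACGTG (core of the hypoxia response element) and GGTCA (the half-site of an estrogen response element), on either strand, in capitals. Slc16a1 lies at chr3:104638414-104638663 on the plus strand, Hk2 at chr6:82774455-82774704 on the minus strand, Pdk4 at chr6:5496279-5496528 on the minus strand, Pgk1 at chrX:106186850-106187099 on the plus strand and G6pdx at chrX:74428881-74429130 on the minus strand.
Slc16a1: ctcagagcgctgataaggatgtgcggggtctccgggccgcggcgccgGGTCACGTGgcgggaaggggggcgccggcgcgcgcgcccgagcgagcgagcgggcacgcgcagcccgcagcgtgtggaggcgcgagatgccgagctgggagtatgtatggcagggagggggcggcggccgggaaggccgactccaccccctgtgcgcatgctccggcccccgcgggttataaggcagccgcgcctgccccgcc
Hk2: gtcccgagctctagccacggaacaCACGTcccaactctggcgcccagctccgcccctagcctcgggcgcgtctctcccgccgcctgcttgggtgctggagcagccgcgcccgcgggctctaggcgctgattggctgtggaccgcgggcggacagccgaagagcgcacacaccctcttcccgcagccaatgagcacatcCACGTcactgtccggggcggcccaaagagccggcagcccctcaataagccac
Pdk4: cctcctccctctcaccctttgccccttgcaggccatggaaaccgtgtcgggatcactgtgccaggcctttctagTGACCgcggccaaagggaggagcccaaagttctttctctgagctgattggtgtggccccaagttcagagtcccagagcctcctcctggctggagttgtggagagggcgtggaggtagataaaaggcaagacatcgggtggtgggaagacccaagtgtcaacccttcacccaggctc
Pgk1: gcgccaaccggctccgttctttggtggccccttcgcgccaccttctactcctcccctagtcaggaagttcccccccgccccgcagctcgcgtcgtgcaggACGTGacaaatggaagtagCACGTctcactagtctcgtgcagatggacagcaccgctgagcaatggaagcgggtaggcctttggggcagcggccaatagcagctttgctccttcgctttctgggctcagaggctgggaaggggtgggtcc
G6pdx: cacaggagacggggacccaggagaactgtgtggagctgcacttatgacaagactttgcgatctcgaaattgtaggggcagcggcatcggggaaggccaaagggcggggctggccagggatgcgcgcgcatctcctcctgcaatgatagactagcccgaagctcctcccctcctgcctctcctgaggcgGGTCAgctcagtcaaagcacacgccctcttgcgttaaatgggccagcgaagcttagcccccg
In these windows, Slc16a1 held GGTCA overlapping a CACGTG, the palindrome that reads as ACGTG on each strand. Hk2 and Pgk1 each held ACGTG at 2 places and no GGTCA, and Pdk4 and G6pdx each held 1 GGTCA and no ACGTG. Among the genes not shown, Ckb, called higher at 2 hr, and Pgd and Tpi1, called higher at 24 hr, held neither. The full element GGTCANNNTGACC was in none of the 54 windows of the 34 genes, and in 0.064% of the 32817 windows of all genes. The half-site GGTCA was in 4 of the 7 windows of 6 genes that rose at 2 hr, in 8 of the 14 windows of the 9 genes that rose at 24 hr, and in 35.2% of all windows. ACGTG was in 3 of the 7 and 5 of the 14, against 16.6% of all windows, and the GC box GGGCGG in 3 and 9, against 32.7%. Over the 54 windows of the 34 genes, whether they rose or not, GGTCA was in 23, ACGTG in 18 and GGGCGG in 26. Both strands were searched, ACGTG lies within CACGTG, and a match is a description of letters, not of a bound site.

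With E2 at 2 hr, 7 of the 36 genes were called higher and 3 lower, while 10.7% of all tested probes were called higher and 10.5% lower. The median difference of the 36 genes was -0.32, against -0.07 over all tested probes. With E3 at 2 hr, 4 genes were called higher and 1 lower, against 4.68% and 9.1% of all tested probes, with a median of -0.05 against -0.11. At an adjusted p under 0.05 of any size, 32 of the 36 genes differed with E2 and 23 with E3, against 61.8% and 49.6% of all tested probes. The 4 genes higher with E3, Slc16a1, Hk2, Pdk4 and Ckb, were also called higher with E2. Scaling over probes above background on all arrays gave 4 higher and 2 lower with E3.

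Slc16a1, the monocarboxylate carrier MCT1 that moves lactate and pyruvate across the cell membrane, stood at 1.56, 1.04 and 1.44 on the saline arrays. With E2 at 2 hr it stood at 3.57, 4.03 and 3.83, and with E3 at 2 hr at 3.67, 3.27 and 3.39. Every 2-hr array lay above every saline array. The increase was 5.50-fold with E2 (log2 difference 2.46 ± 0.17 SE, adjusted p = 1.57e-07) and 4.28-fold with E3 (2.10 ± 0.17, adjusted p = 1.06e-06). At 24 hr the levels were 1.89, 1.67 and 1.91 with E2, still above all saline arrays (difference 0.48, adjusted p = 0.0261), and 1.23, 1.43 and 1.03 with E3, overlapping saline. The 2 other probes of Slc16a1 rose by 2.52 and 2.92 with E2 and by 2.21 and 2.60 with E3 at 2 hr, and both were called.

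Hk2, the inducible hexokinase that phosphorylates glucose at the outer mitochondrial membrane, stood at 0.81, 1.10 and 0.73 with saline, at 2.14, 2.94 and 3.11 with E2 at 2 hr, and at 2.72, 2.65 and 2.51 with E3 at 2 hr. Both hormone groups lay above all saline arrays, and the E3 arrays lay within the range of the E2 arrays. It was increased 3.60-fold with E2 (1.85 ± 0.24, adjusted p = 2.66e-05) and 3.35-fold with E3 (1.74 ± 0.24, adjusted p = 6.84e-05). Hk1, the hexokinase found in most tissues, rose 2.34-fold with E2, from 3.20, 3.06 and 3.11 to 4.05, 4.60 and 4.41 (adjusted p = 2.51e-06). With E3 its levels of 4.15, 4.11 and 3.98 were also above all saline arrays, at a difference of 0.96 that lay under the 2-fold cutoff (adjusted p = 3.19e-05). Leaving out E3 2 hr replicate 3 raised it to 1.00, past the cutoff, and 3 of its 4 dimmer probes that were tested were called with E3, at 1.17 to 1.18.

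Slc2a1, the carrier GLUT1 of basal glucose uptake, stood at 2.27, 2.17 and 2.16 with saline and at 3.50, 3.00 and 3.20 with E2 at 2 hr, a 2.05-fold increase (1.04 ± 0.13, adjusted p = 2.71e-05). The Slc2a1 call was kept in 14 of 18 alternatives. In this and the later counts of 18, some alternatives changed no call of any member in any comparison. These were the dim-probe filter left out, a mean signal above 100, the series values, the replicate block and the slide block. The series values were the same intensities, so they could change no call. The counts kept therefore overstate how far a call was tested. The Slc2a1 call was lost without E2 2 hr replicate 1, its highest array (0.90). It was also lost under normexp background correction, quantile normalization and the percentile over probes above background on all arrays. With E3 at 2 hr the levels were 2.74, 2.64 and 2.54, a difference of 0.44 (adjusted p = 0.015). Slc2a3, the high-affinity carrier GLUT3, rose from 0.22, 0.02 and 0.06 to 2.39, 1.61 and 0.89 with E2 (1.53 ± 0.27, adjusted p = 0.000387), and stood at 1.12, 1.45 and 0.94 with E3 (1.07 ± 0.27, adjusted p = 0.00632), where it missed the p cutoff. The 3 E2 arrays of Slc2a3 were spread over more than a 2-fold range. Its 2 other probes differed by 1.66 and -0.34 with E2 at 2 hr, so 1 probe of this gene disagrees. Both are dim, with mean levels of -6.06 and -7.28 against 0.34 for the brightest. The lowest level well above background was -7.77 to -8.29 per array, so the dissenting probe lay near it. The Slc2a3 call was kept in 14 of 18 alternatives and lost with the mean of its probes (0.95), normexp, a fit to these 2 groups alone, and without the 4 arrays with pancreas transcripts described at the end.

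Slc2a4, the insulin-responsive carrier GLUT4, differed by -0.75 with E2 and -0.83 with E3 at 2 hr, and Slc16a3, the lactate exporter MCT4, by -0.36 and 0.62. Neither was called. The arrays of Slc16a3 overlapped between saline and both hormones at 2 hr.

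Ckb, which buffers ATP through phosphocreatine, stood at 4.31, 4.22 and 4.27 with saline, at 5.11, 5.93 and 5.83 with E2 at 2 hr, and at 5.71, 5.72 and 5.47 with E3 at 2 hr. All 6 treated arrays lay above saline. The increases of 2.57-fold (1.36 ± 0.19, adjusted p = 6.49e-05) and 2.58-fold (1.37 ± 0.19, adjusted p = 9.7e-05) were close in size. The other probe of Ckb was called in both comparisons, at 1.40 and 1.56.

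Pdk4, the kinase that shuts pyruvate out of oxidation in fasting tissues, rose with E2 at 2 hr about as far as Slc16a1. It stood at 0.31, -0.29 and 0.25 with saline, at 2.42, 2.77 and 2.50 with E2, and at 1.97, 1.84 and 1.52 with E3. The 3 groups did not overlap. The increase was 5.54-fold with E2 (2.47 ± 0.16, adjusted p = 1.12e-07) and 3.22-fold with E3 (1.69 ± 0.16, adjusted p = 3.99e-06). Among the other isoforms, Pdk2 and Pdk1 were called lower with E2 at this time. Pdk2 fell from -2.40, -2.64 and -2.56 to -3.99, -4.05 and -4.12 with E2 (-1.52 ± 0.11, adjusted p = 3.05e-07), and Pdk1 from -0.05, -0.12 and 0.12 to -0.98, -1.57 and -0.81 (-1.10 ± 0.17, adjusted p = 0.000143). The Pdk1 call was kept in 13 of 18 alternatives. It was lost without E2 2 hr replicate 2, its lowest array (-0.88), and with normexp, no scaling, the mean of its probes, or a fit to these 2 groups alone. With E3 the differences were -0.92 for Pdk2 and -0.97 for Pdk1, below all saline arrays but under the 2-fold cutoff. Pdk3 differed by -0.53 with E2 and -0.06 with E3, and Pdha1, the catalytic subunit on which these kinases act, by 0.04 and -0.10.

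Glycolytic enzymes below hexokinase were not raised past the cutoffs at 2 hr. Under 2-fold, Eno1 differed by 0.68 with E2 and 0.81 with E3 (adjusted p = 0.00116 and 0.000475). Pgam1 differed by 0.54 and 0.58 (adjusted p = 5.67e-05 and 4.61e-05). With E3 at 24 hr these genes differed by 0.75 and 0.44. At an adjusted p under 0.05 of any size, 7 of the 21 glycolysis genes were higher and 13 lower with E2 at 2 hr. With E3, 5 were higher and 9 lower, against 61.8% (E2) and 49.6% (E3) of all tested probes. Eno3, the enolase of muscle, fell with E2 from 1.56, 1.25 and 1.22 to 0.21, -0.05 and 0.18 (-1.23 ± 0.12, adjusted p = 2.3e-06), while with E3 it differed by -0.52. Pfkfb2, which makes and removes the phosphofructokinase activator fructose 2,6-bisphosphate, fell with E3 from -0.32, -0.62 and -0.35 to -1.35, -1.46 and -1.77 (-1.09 ± 0.13, adjusted p = 1.85e-05) and differed by -0.59 with E2. Without E3 2 hr replicate 3 the Pfkfb2 difference was -0.97, and over its 4 probes the mean difference was -0.65, and neither passed the 2-fold cutoff. Pfkfb3, the isoform with the strongest kinase activity, differed by 0.58 with each hormone. The skeletal muscle marker list had 3 of 11 tested genes called lower with E2 at 2 hr and 0 with E3, and its summed signal was 4.25 to 4.67 with E2 against 7.59 to 8.65 with saline, so Eno3 moved beside it; the part of muscle tissue in this was not tested.

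**Figure D2:**
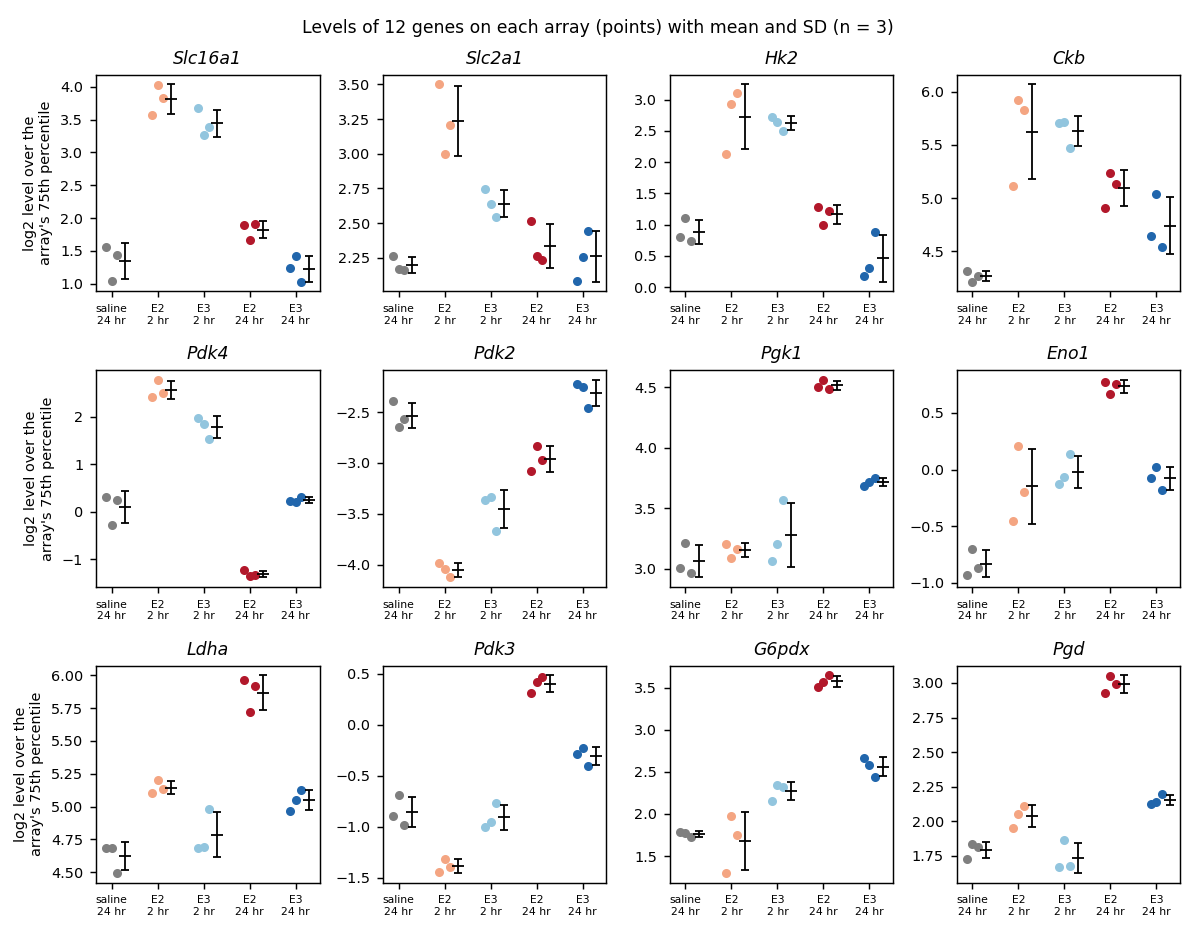
Points are the log2 levels (vertical axis, over the array's 75th percentile; each panel has its own range) of 12 genes on the 3 arrays of each group, and bars are the mean and SD. Genes of the upper row and Pdk4 are highest on 2-hr arrays; Pdk2 is lowest at 2 hr; Pgk1, Eno1, Ldha, Pdk3, G6pdx and Pgd are highest on the E2 24-hr arrays, with the E3 24-hr arrays between those and saline in these 6 genes.

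With E2 at 24 hr, 9 of the 36 genes were called higher and 1 lower, against 6.91% and 11.2% of all tested probes. The median difference of the 36 genes was 0.49, against -0.06 over all tested probes, and 28 genes had an adjusted p under 0.05 at any size, against 61.3% of all tested probes. Glycolysis held 6 of the 9, and 2 belonged to the pentose phosphate pathway and 1 to pyruvate use. With quantile normalization, 5 genes were called higher and 1 lower.

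Tpi1, Pgk1, Pgam1, Eno1, Pkm2 and Ldha act in succession from triose phosphate to lactate. Pgk1, which makes the first ATP of the pathway, stood at 3.01, 3.21 and 2.97 with saline and at 4.50, 4.56 and 4.49 with E2 at 24 hr, a 2.74-fold increase (1.45 ± 0.11, adjusted p = 1.08e-06). Eno1, the enolase of most tissues, rose 2.96-fold, from -0.93, -0.70 and -0.87 to 0.78, 0.67 and 0.76 (1.57 ± 0.14, adjusted p = 2.64e-06). Ldha, which reduces pyruvate to lactate, rose 2.37-fold, from 4.68, 4.68 and 4.50 to 5.97, 5.72 and 5.92 (1.25 ± 0.10, adjusted p = 1.34e-06). In each of these genes the treated arrays lay more than 1 log2 unit above every saline array. Pgam1, the mutase before enolase, rose by 1.12 (adjusted p = 4.35e-07) and Tpi1, the triose isomerase, by 1.07 (adjusted p = 1.08e-06). Pkm2, the array's older symbol for the pyruvate kinase gene Pkm, rose from 2.52, 2.50 and 2.22 to 3.38, 3.50 and 3.38, at the cutoff (2.01-fold, adjusted p = 3.5e-05). Splice forms of this gene were not told apart. The Pkm2 call was kept in 11 of 18 alternatives, a count that includes the alternatives named above that changed no member's call. Without saline 24 hr replicate 3 the Pkm2 difference was 0.91 and without E2 24 hr replicate 2 it was 0.97, neither called. Under quantile normalization Ldha (0.95), Pgam1 (0.79), Tpi1 (0.74) and Pkm2 (0.77) no longer passed the 2-fold cutoff. Gapdh, between Tpi1 and Pgk1 in the pathway, was not analysed here.

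The other glycolytic genes moved less at 24 hr with E2. Aldoa, the aldolase of most tissues, differed by 0.69, Pfkl, the liver-type phosphofructokinase subunit, by 0.54 and Gpi1, glucose phosphate isomerase, by 0.51, each above all saline arrays (adjusted p = 0.000176, 0.000149 and 0.000167). Pfkfb2 differed by -0.90, Pfkfb3 by -0.71 and Pfkp, the platelet-type subunit, by -0.55, each below all saline arrays. The 2 dimmer probes of Pfkp differed by -1.25, which was called, and -0.65. Hk2 and Slc2a1, raised at 2 hr, stood at 0.99 to 1.29 and 2.23 to 2.52 and overlapped saline. Slc2a3 stood at -0.88, -0.68 and -0.95, below all saline arrays, at a difference of -0.94 (adjusted p = 0.0104). Its 2 dimmer probes, at mean levels of -6.06 and -7.28, were called lower, at -1.22 and -1.63.

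In the pentose phosphate pathway, G6pdx, which sets its entry rate and forms NADPH, stood at 1.79, 1.77 and 1.73 with saline and at 3.51, 3.57 and 3.64 with E2 at 24 hr. That 3.51-fold increase (1.81 ± 0.14, adjusted p = 8.91e-07) was the largest rise of the 36 genes at 24 hr. Pgd, the second NADPH-forming enzyme, rose 2.30-fold, from 1.73, 1.84 and 1.81 to 2.93, 3.05 and 2.99 (1.20 ± 0.08, adjusted p = 3.24e-07). Taldo1 and Tkt, the transaldolase and transketolase of the non-oxidative branch, differed by 0.93 and 0.69, above all saline arrays but under 2-fold. None of the 4 genes was called at 2 hr with either hormone.

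The Pdk isoforms parted again at 24 hr. Pdk3 rose from -0.89, -0.69 and -0.98 to 0.31, 0.42 and 0.47 with E2 (2.39-fold, adjusted p = 8.56e-07). Pdk4 fell to -1.23, -1.36 and -1.33, below every saline array (-1.40 ± 0.16, adjusted p = 1.37e-05), so that a gene raised by both hormones at 2 hr was the only member called lower with E2 at 24 hr. Between E2 at 2 and 24 hr it fell by 3.87 on the log2 scale, or 14.6-fold (adjusted p = 2.74e-09). Pdk1 differed by -0.86 and Pdk2 by -0.43 from saline, and Pdha1 by 0.63, while its other probe, almost as bright, differed by 1.11 (adjusted p = 2.64e-07) and was called. Fat expresses Pdk4, and the fat marker list moved with this fall: 7 of its 8 tested genes were lower at an adjusted p under 0.05 with E2 at 24 hr, 1 of them called, and its summed signal was 9.55 to 15.5 against 13.9 to 77.3 with saline. The saline array with the least fat signal, replicate 2 at 13.9, also had the lowest Pdk4 level of its group, -0.29, while E3 24 hr replicate 3, with a fat signal of 10.9, had a Pdk4 level of 0.31. The part of fat in the fall of Pdk4 was not tested.

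With E3 at 24 hr, limma called 0 of the 36 genes in either direction, against 1.84% of all tested probes higher and 1.98% lower. At an unadjusted p under 0.05, 19 genes were higher and 1 lower, against 44.4% of all tested probes in either direction, and at an adjusted p under 0.05 and any size, 17 of the 36 were higher and 0 lower, against 34% of all tested probes in either direction. Among the dimmer probes, 1 of Slc2a3 was called lower, at -1.25 (adjusted p = 0.000349). The median difference was 0.39, against -0.01 over all tested probes. G6pdx had the largest difference, 0.80 (levels 2.66, 2.58 and 2.44, adjusted p = 0.00127), and Eno1 and Pgk1 differed by 0.75 and 0.65. These levels lay above all saline arrays and below all E2 24-hr arrays. The 9 genes called higher with E2 at 24 hr differed by 0.36 (Pgd) to 0.80 with E3, and both comparisons share the saline arrays. Pdk4 stood at 0.23, 0.19 and 0.31, and overlapped saline.

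Compared directly at 2 hr, E3 and E2 differed past both cutoffs in 0 of the 36 genes by limma, against 1.5% of all tested probes higher with E3 and 6.01% lower. At an unadjusted p under 0.05, 10 genes were higher with E3 and 7 lower, against 51.4% of all tested probes in either direction, and at an adjusted p under 0.05 of any size, 8 and 5, that is 13 of 36, against 43.4% of all tested probes. Pdk4 was lower with E3 by 0.78 (adjusted p = 0.002) and Slc2a1 by 0.59 (adjusted p = 0.00367), and Eno3 was higher by 0.71 (adjusted p = 0.000496). The largest difference, 0.98 for Slc16a3, had a 95% interval of 0.22 to 1.74. For Hk2 the interval of the difference was -0.62 to 0.41 and for Ckb -0.42 to 0.43. The E2 2-hr arrays' other strain, slides and scanner enter each of these differences.

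At 24 hr, 1 gene was called higher with E3 than with E2, Pdk4, and 1 lower, G6pdx, against 2.77% and 2.07% of all tested probes. Pdk4 was higher by 1.55 ± 0.16 (2.93-fold, adjusted p = 3.68e-05), with no overlap of the arrays. All 8 tested fat markers also differed upward here, with a median of 1.15, and 1 was called. The part of fat in the Pdk4 difference was not tested. G6pdx was lower by 1.01 on the log2 scale (adjusted p = 0.000201). The G6pdx call was kept in 13 of 18 alternatives. It did not pass the 2-fold cutoff without E2 24 hr replicate 3 (-0.98), without E3 24 hr replicate 3 (-0.95), with quantile normalization, without the 4 arrays with pancreas transcripts, or with the percentile taken over probes above background on all arrays, which left 1 gene higher and 0 lower. At an adjusted p under 0.05 of any size, 9 genes were higher with E3 and 14 lower, 23 of 36, against 36.4% of all tested probes. The lower ones included Pgd (-0.84), Ldha (-0.82, with its other probe called at -1.15), Eno1 (-0.81), Pgk1 (-0.80), Pdk3 (-0.71), Pgam1 (-0.68), Pfkl (-0.61) and Tpi1 (-0.58). Besides Pdk4, the higher ones included Slc2a4 (0.65), Pfkfb2 (0.59), Pfkfb3 (0.56), Pfkm (0.45), Eno2 (0.44) and Pfkp (0.40). Slc2a1, Hk1 and Gpi1 had intervals of -0.37 to 0.21, -0.26 to 0.26 and -0.17 to 0.18.

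**Figure D3:**
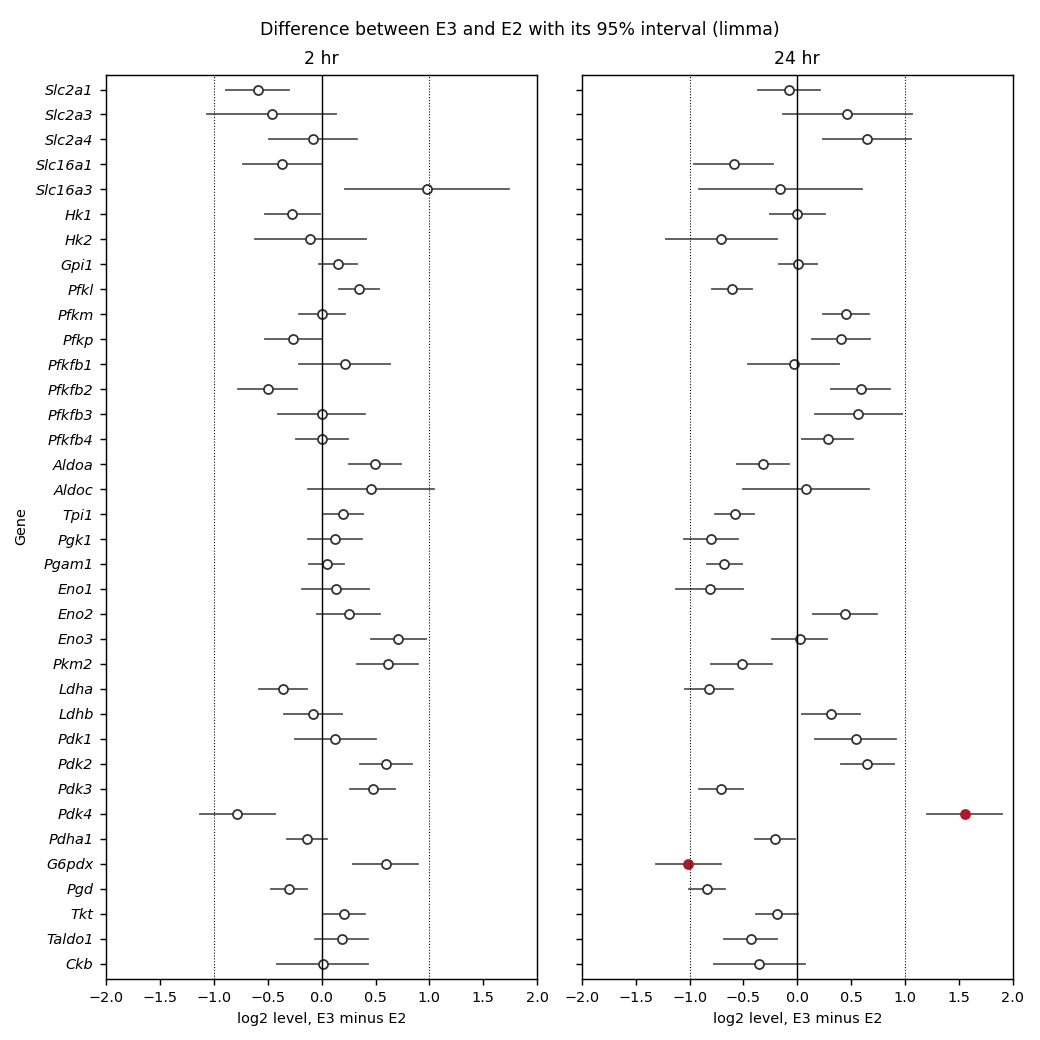
Points are the log2 level with E3 minus that with E2 for the 36 genes at 2 hr (left) and 24 hr (right), lines are 95% intervals from limma, dotted lines mark 2-fold, and filled points passed both cutoffs. At 2 hr no point is filled; at 24 hr Pdk4 lies at 1.55 and G6pdx at -1.01.

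Between 2 and 24 hr, E2 gave 12 genes called higher and 5 lower, against 13.6% and 17.4% of all tested probes, and E3 gave 4 higher and 4 lower, against 9.63% and 6.48%. At an adjusted p under 0.05 of any size the counts were 34 and 28, against 69.9% and 55.2% of all tested probes. The 5 that fell with E2 were Slc2a3, Slc16a1, Hk2, Pfkfb3 and Pdk4, and 4 of these, all but Pfkfb3, fell with E3 too. Slc16a1 fell by 1.99 with E2 and by 2.21 with E3 on the log2 scale, and Hk2 by 1.56 and 2.16 (adjusted p = 7.38e-05 and 1.02e-05). Pfkfb1 and Pdk2 rose with both hormones, by 1.35 and 1.11 for Pfkfb1, a bifunctional regulator best known from liver and muscle, and by 1.09 and 1.14 for Pdk2. With E2 alone, calls by the brightest probe were also made for Pfkl, Aldoa, Tpi1, Pgk1, Eno3, Pkm2, Pdk3, G6pdx, Tkt and Taldo1, from 1.01 for Aldoa to 1.90 for G6pdx. Tpi1 rose under 2-fold with E3 as well, by 0.72 (adjusted p = 1.81e-05). The 2 dimmer probes of Pfkp were called lower with E2, at -1.65 and -1.24. The E2 2-hr arrays differ from the E2 24-hr arrays in strain label and scanner, which cannot be told apart from time, while the E3 arrays share both. The Tkt call rested on its brightest probe, since its 2 other probes differed by 0.09 and -1.02. Without E2 24 hr replicate 2 the Aldoa difference was 0.94, and without E2 2 hr replicate 1 or 3 it lay just under the 2-fold cutoff, so that none of these was called. With E3 alone, calls were made for Slc2a4, at 1.42, and Pfkm, the muscle-type phosphofructokinase subunit, at 1.14. With E2 each of these differed by 0.69, under 2-fold. The Pfkfb1 difference with E3 was 0.89 without E3 2 hr replicate 1 and 0.95 without E3 24 hr replicate 1, and was called in neither case. The Pdk2 call with E2 was lost without scaling. Without the 4 arrays with pancreas transcripts, the calls of Hk2, Pfkfb3, Pdk2 and Aldoa with E2 and of Slc2a3 with E3 were lost. Over all alternatives Hk2 with E2 stayed between -1.86 and -1.37, and Slc2a3 with E3 between -1.66 and -1.40. Slc2a4, Pfkm and Eno3 are genes of striated muscle, and the skeletal muscle markers rose over the same interval in 7 of 11 tested genes with E2 and in 3 with E3, with Tnni2, a troponin of fast muscle, at 3.45 and 2.00, while Myh4 was not well above background on 12 of the 15 arrays. The part of muscle tissue in these differences was not tested.

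Of the other pathway genes, 76 were listed and 75 tested. At 2 hr, 4 were called higher and 12 lower with E2, and 2 higher and 5 lower with E3, against the shares of all tested probes of 10.7% and 10.5% with E2 and 4.68% and 9.1% with E3. Of the 10 liver markers, 9 were called lower with E2 at 2 hr, where 4 were above background on no array, and 2 with E3, with a median of -1.96. Both pathway genes higher with E3 were regulators that also rose with E2: Epas1, the hypoxia-inducible factor 2 alpha, by 2.35 and 1.25, and Mlxipl, the glucose-sensing factor ChREBP, by 2.20 and 1.90. Hif1a rose by 1.03 with E2 (adjusted p = 4.78e-06) and differed by 0.93 with E3, and Idh3a, a subunit of the citrate cycle's isocitrate dehydrogenase, rose by 1.03 with E2. Ppargc1a, a coactivator of mitochondrial genes, fell by 2.34 and 2.85, and Ppm2c, a phosphatase that reverses the Pdk kinases, fell by 1.29 and 1.80. Slc2a5 and Slc2a9, carriers of fructose and urate, fell with both hormones as well. Txnip, which restrains glucose uptake, fell by 1.81 with E3 and differed by -0.76 with E2.

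At 24 hr, 9 of these genes were called higher and 6 lower with E2, and 3 higher and 2 lower with E3, against 6.91% and 11.2% of all tested probes with E2 and 1.84% and 1.98% with E3. Ckmt1, the mitochondrial creatine kinase, stood at -0.22, -0.77 and -0.54 with saline, at 3.40, 3.34 and 3.12 with E2, and at 1.81, 2.00 and 2.00 with E3, so that it rose by 3.80 and 2.45 (adjusted p = 8.33e-08 and 2.14e-05). The cytosolic Ckb differed at that time by 0.83 and 0.48. Slc5a1, the sodium-driven glucose carrier SGLT1, rose by 2.84 with E2 and 1.45 with E3. With E2, Dlat, Cs, Idh3a, Pgls, Gamt, Ckm and Egln3 were also called higher, from 1.01 for Cs to 1.51 for Egln3, and Txnip, Ppm2c, Ppargc1a and Ppp1r3c lower. Pck2 was called higher with E3, at 1.07. Fbp1, a gluconeogenic enzyme of liver, was called lower with both hormones at 24 hr, and liver transcripts fell with it: all 10 liver markers were called lower with each hormone. Ckm also stands in the skeletal muscle list, of which 4 of 11 tested genes were called higher with E2 at 24 hr and 2 with E3.

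Transcripts of other tissues were unequal among the arrays. The summed signal of 10 liver markers, in multiples of the 75th percentile, was 7.41 to 27.4 with saline, 2.01 to 4.69 with E3 at 2 hr, and 0.43 to 0.799 on the other 9 arrays. That of 7 exocrine pancreas markers was 547 and 11.6 on replicates 2 and 3 of E3 at 2 hr, 259 and 5 on replicates 2 and 3 of E2 at 24 hr, and at most 0.575 elsewhere. Leaving out these 4 arrays left 1 array in each of those groups, whose spread was then assumed to be that of the other groups. Under that assumption, 9 of the 36 genes were called with E2 at 24 hr and 3 with E3 at 2 hr, which were Slc16a1, Pdk4 and Hk1. The differences with the lone E3 2-hr array were 1.84 for Hk2, 1.44 for Ckb and -0.91 for Pfkfb2, not called. Without saline replicate 1, the array with the most liver transcript, the counts were the same 10, 5, 10 and 0 in the 4 comparisons with saline. On the slide that carried saline replicate 3 and all E3 2-hr arrays, the 5 genes called with E3 at 2 hr differed by 2.00 (Slc16a1), 1.89 (Hk2), 1.53 (Pdk4), 1.37 (Ckb) and -1.18 (Pfkfb2) within the slide. Uterine markers were well above background on every array, and the estrogen-responsive markers had a summed signal of 6.33 to 6.50 with saline and 13.6 to 53.7 on the treated arrays.

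**Figure D4:**
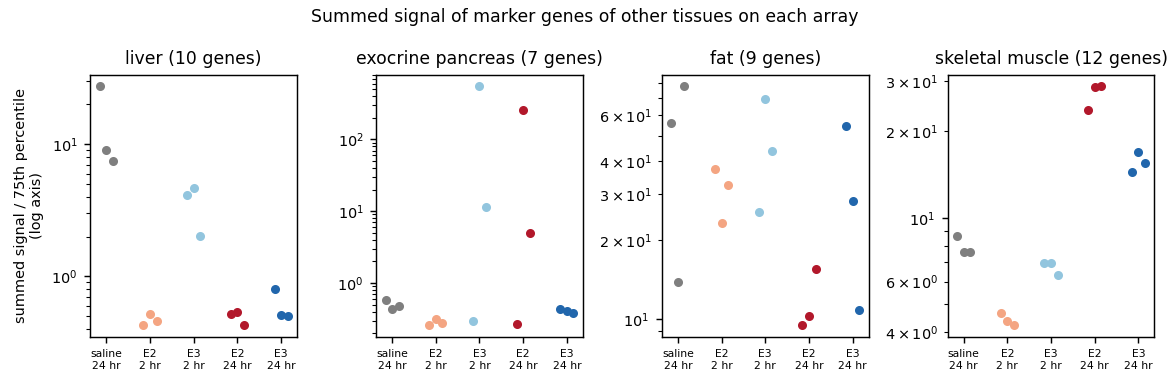
Points are the summed processed signal of marker genes, in multiples of the array's 75th percentile on a log axis, on the 3 arrays of each group. Liver is highest with saline, pancreas on replicates 2 and 3 of E3 at 2 hr and of E2 at 24 hr, fat lowest with E2 at 24 hr apart from single saline and E3 arrays, and muscle highest at 24 hr.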

How the data were processed

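RNA of 15 uterine samples was measured on single-color Agilent arrays. The deposited values are scanner intensities: the authors extracted them with Feature Extraction 9.5 (9.5.3.1 per the file headers), which subtracted background to give the processed signal. The deposited series table held the same processed intensities (largest relative difference 0). The probe build named in the file headers differs from GRCm38.p6, the build of the RefSeq promoter sequences, and no probe coordinates were used.

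Control spots and 1893 outlier spots were left out, spots of a probe were averaged, and the log2 processed signal was reduced by the log2 75th percentile of its array. Of 41174 probes, 34776 were tested. The filter kept a probe when 2 or more arrays in any group flagged it as well above background. limma 3.58.1 in R 4.3.3 (lmFit, eBayes) was fitted to all 5 groups, with 10 residual degrees of freedom, for 8 comparisons. Calls needed p below 0.001 and a 2-fold change, the cutoffs the study states for these arrays. Adjusted p-values are Benjamini-Hochberg values over all tested probes, and intervals are at 95%. Scripts were tested on simulated data. The members, the other pathway genes and the marker lists were chosen with earlier results of these data known, and each member was reported by its brightest probe. Of the 36 members, 17 had 1 probe and 19 several. Other pathway genes were named from among those called in a comparison, and not every called gene is reported here by name.

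The number of arrays limits the precision. Between 77.8% and 81.8% of probes were well above background per array, and the 15 arrays lay on 7 slides read by 2 scanners. Replicate numbers of the labels were checked for pairing by correlating the deviations of same-numbered arrays from their group means. Only in E3 24 hr against E3 2 hr did all 3 pairs exceed 0.1 (0.12 to 0.55), and no shared batch is stated. The reported fit used no pairs in any comparison, and a replicate block was run only as an alternative. Alternatives covered background correction, scaling, the filter, the call rule, the probe of a gene, the source table, a replicate block, the slide as a random block, the arrays fitted, and each array left out. Leaving out the 4 arrays with pancreas transcripts was added after seeing the data. The authors' Rosetta Resolver step could not be repeated here. Python 3.11.15 and matplotlib 3.10.9 drew the figures.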

Additional observations from a re-analysis of the deposited data

Results flagged for a closer look

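The difference between E3 and E2 was itself compared between 24 and 2 hr, as an interaction term in limma, and it changed past both cutoffs in 5 of the 36 genes, 2 upward and 3 downward, against 11.3% and 4.26% of all tested probes. For Pdk4 the E3 minus E2 difference was higher at 24 hr than at 2 hr by 2.34 ± 0.23 SE on the log2 scale (adjusted p = 1.6e-05), from -0.78 to 1.55. For Pfkfb2 it was higher by 1.09 (adjusted p = 0.000422), from -0.50 to 0.59. It changed by -1.61 for G6pdx (adjusted p = 6.26e-05), from 0.59 to -1.01. For Pdk3 the change was -1.18 (adjusted p = 4.12e-05), from 0.47 to -0.71, and for Pkm2 it was -1.13 (adjusted p = 0.000407), from 0.62 to -0.52. By these probes, the brightest of each gene, the sign of the difference turned between the times in all 5 genes. The dimmer probes of Pfkfb2 changed by 0.93, 0.18 and 0.11, and in the last 2 the sign did not turn. The dimmer probes of Pdk3 and Pkm2 changed by -0.91 and -0.76, under 2-fold. All 8 tested fat markers changed upward, as Pdk4 did, with a median of 0.87, and 1 was called. The part of fat in the change of Pdk4 was not tested. The E2 2-hr arrays, with their own strain label, slides and scanner, enter each value and cannot be told apart from the hormone at that time.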

How the results depend on the processing

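No member's difference that was called changed sign under any alternative run. Counts of members called are given in the order E2 2 hr, E3 2 hr, E2 24 hr and E3 24 hr against saline, E3 against E2 at 2 and at 24 hr, and 24 against 2 hr with E2 and with E3, which were 10, 5, 10, 0, 0, 2, 17 and 8 as reported. With p below 0.001 and no minimum change they were 22, 15, 19, 12, 7, 13, 27 and 21, against 41.1%, 30.1%, 39.2%, 15.9%, 22.6%, 18.7%, 51% and 35% of all tested probes. With an adjusted p under 0.05 and no minimum change they were 32, 23, 28, 17, 13, 23, 34 and 28, against 61.8%, 49.6%, 61.3%, 34%, 43.4%, 36.4%, 69.9% and 55.2%. Quantile normalization gave 6 for E2 at 24 hr against saline and 1 for E3 against E2 at 24 hr, and the percentile over probes above background on all arrays gave 1 for the latter. No scaling gave 13 for 24 against 2 hr with E2, and normexp gave 7 for E2 at 2 hr against saline. Without the 4 arrays with pancreas transcripts, E3 at 2 hr against saline gave 3 and E3 against E2 at 24 hr gave 1; the cause was not tested. Leaving out each array in turn gave 10 to 11, 5 to 6, 9 to 11, 0, 0, 1 to 2, 16 to 20 and 7 to 9. With the replicate block the counts stayed 10, 5, 10, 0, 0, 2, 17 and 8 and no call of a member changed, and the slide as a random block changed none either. Same-numbered arrays correlated between -0.47 and 0.29 in the comparisons other than E3 24 hr against E3 2 hr. With normexp the median of all probes moved to 0.31, 0.44 and 0.50 for E3 at 24 hr against saline, against E2 at 24 hr, and against E3 at 2 hr.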
